A study of Homo sapiens with 24 samples.

Results

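Voltage-gated sodium and calcium channel genes were followed in 3D LUHMES aggregates, a model of human dopaminergic neurons, during and after exposure to the complex I inhibitor rotenone. The members were chosen by name. A gene belonged if its RefSeq symbol was SCN followed by a number and A or B, or began with CACNA, CACNB or CACNG, and if the gene codes for protein. All 40 such genes had at least 1 probe on the array and were among the 21239 genes tested, 14 of them sodium channel genes and 26 calcium channel genes.

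LUHMES is a human fetal midbrain line, immortalized with v-myc under tetracycline control, that leaves the cell cycle and becomes neuronal when tetracycline is added. All samples came from this single line, differentiated as floating aggregates on a shaker in medium with cAMP, GDNF, tetracycline and N2. RNA was measured on 24 one-color arrays, 3 for each of 8 groups. Exposure began on day 7 and was to DMSO, to 50 nM rotenone lasting 12 h or 24 h, or to 100 nM rotenone lasting 24 h. In 4 groups RNA was taken when exposure ended (day 8). In the other 4, which had received these same treatments, it was taken on day 15, 7 days after the compound was washed out. The authors detected no free rotenone in the medium then, and state that some could remain bound to cells. DMSO samples carried the amount of solvent of the 100 nM dose. A single DMSO group per day, with no exposure time in its label, served both durations. The labels do not say whether the 12 h exposure began or ended at another hour than the 24 h exposures. Nothing in the labels says that replicates came from separate experiments, so that p-values measure the spread between these samples, which may be technical. In bulk RNA, fewer cells of a type and less RNA per cell cannot be told apart.

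Each array slide held 1 array of every group, and replicates 1, 2 and 3 lay on slides 1, 2 and 3. Slide 1, which the submitters describe as repeated and in need of batch correction, stood apart: 67.3% to 82.4% of its spots per array were well above background in the scanner software, against 50.9% to 62.4% on slides 2 and 3. A group's position on the slide did not vary, and an effect of position therefore cannot be told apart from one of treatment. All 8 pan-neuronal markers were well above background on every DMSO array. GFAP, an astrocyte marker, SOX2, a progenitor marker, and P2RY12, a microglial marker, were so on none. Other such markers were detected. Of 4 progenitor or cycling markers, 3 were well above background on all 3 DMSO arrays of day 8 and 1 on all 3 of day 15. Of 3 oligodendrocyte markers tested, 2 were so on all 3 DMSO arrays of either day. None of the 5 astrocyte or 4 microglial markers tested was so on all 3. In each of these lists 2 were so on no DMSO array of day 8, and 1 on none of day 15. TH, the enzyme that makes the dopamine precursor, had a mean log2 signal of 9.78 in DMSO on day 8 and 6.84 on day 15, and was well above background on all 6 arrays.

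Voltage-gated sodium channels open on depolarization and carry the rapid upstroke of the action potential. Their pore is a single large alpha subunit, joined by small beta subunits with an immunoglobulin-like domain that alter gating and cell adhesion. Voltage-gated calcium channels have a related pore and turn depolarization into calcium entry, which triggers transmitter release, gene expression and, in dopaminergic neurons, pacemaking. Their high-voltage-activated members assemble with a cytoplasmic beta subunit and an extracellular alpha2delta subunit. Low-voltage-activated, or T-type, channels work as the pore alone. Proteins of the gamma family include muscle calcium channel subunits and auxiliary subunits of AMPA receptors.

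Expression is given as the log2 of the background-corrected, normalized and batch-corrected array signal, averaged over the probes of a gene. This scale serves to compare a gene between groups and not 1 gene with another. A gene passed when its adjusted p was under 0.05 (limma, Benjamini-Hochberg over all 21239 genes), whatever the size of its change, and the number past 1.5-fold is given beside. Of the 40 genes, 24 were well above background on all 24 arrays, and 9 were so on 12 or fewer. CACNA1D, CACNA1F, CACNA2D3, CACNG2, CACNG3, CACNG8, SCN10A and SCN11A were among them, and none of the 9 passed in any comparison.

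RefSeq promoter windows (GRCh38.p14, 250 bases before to 50 after an annotated start) were available for 26 of the 40 genes, 40 windows in all, and for 11 of the 17 genes that passed somewhere. CACNG1 had no entry. The windows of the other 3 genes that passed with 100 nM rotenone on day 8 are printed 5′ to 3′ on the gene's own strand, since these genes carry the day 8 result and their starts differ in make-up. Capitals mark GC boxes (GGGCGG) and E-boxes (CAGCTG), searched on both strands together with the TATA box (TATAAA) and the cAMP response element (TGACGTCA); these motifs share no letters by overlap here.
SCN1A, first start, chr2:166127971-166128270, minus strand: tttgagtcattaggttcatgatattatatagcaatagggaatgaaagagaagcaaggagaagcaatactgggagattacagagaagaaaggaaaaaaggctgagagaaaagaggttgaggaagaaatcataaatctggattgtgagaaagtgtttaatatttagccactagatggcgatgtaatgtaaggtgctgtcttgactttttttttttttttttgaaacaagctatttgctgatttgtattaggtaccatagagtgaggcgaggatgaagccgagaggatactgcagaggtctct
SCN1A, second start, chr2:166149112-166149411, minus strand: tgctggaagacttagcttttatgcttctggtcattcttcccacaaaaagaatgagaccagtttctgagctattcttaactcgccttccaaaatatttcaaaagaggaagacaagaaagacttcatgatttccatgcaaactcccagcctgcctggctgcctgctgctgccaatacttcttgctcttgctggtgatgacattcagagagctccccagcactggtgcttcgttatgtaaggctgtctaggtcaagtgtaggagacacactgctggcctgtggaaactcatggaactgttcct
CACNA2D2, first start, chr3:50504195-50504494, minus strand: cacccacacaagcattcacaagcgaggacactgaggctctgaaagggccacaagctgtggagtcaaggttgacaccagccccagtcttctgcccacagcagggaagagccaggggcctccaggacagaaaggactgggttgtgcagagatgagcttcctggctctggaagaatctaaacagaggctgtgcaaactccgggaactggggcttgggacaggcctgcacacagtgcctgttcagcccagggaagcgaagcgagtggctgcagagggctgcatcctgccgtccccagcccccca
CACNA2D2, second start, chr3:50503585-50503884, minus strand: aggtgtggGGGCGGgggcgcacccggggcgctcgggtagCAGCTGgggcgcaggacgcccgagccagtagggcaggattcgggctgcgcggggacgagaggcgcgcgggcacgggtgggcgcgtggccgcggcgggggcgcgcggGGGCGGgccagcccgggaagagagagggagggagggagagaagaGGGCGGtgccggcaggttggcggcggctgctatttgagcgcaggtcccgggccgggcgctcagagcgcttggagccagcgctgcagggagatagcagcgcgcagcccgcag
SCN2B, chr11:118176590-118176889, minus strand: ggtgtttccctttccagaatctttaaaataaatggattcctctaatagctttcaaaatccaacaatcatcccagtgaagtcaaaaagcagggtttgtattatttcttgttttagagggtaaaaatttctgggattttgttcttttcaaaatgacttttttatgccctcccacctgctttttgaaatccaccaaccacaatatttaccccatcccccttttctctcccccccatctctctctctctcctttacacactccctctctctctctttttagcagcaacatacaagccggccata

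Starts are numbered as listed and not by their order along the strand: the upstream start is the second for SCN1A and the first for CACNA2D2. The second CACNA2D2 window held 39 CpG dinucleotides, 3 GC boxes and 1 E-box, with 77.3% G or C. Its first window held 5 CpG and none of the motifs. The SCN1A windows held 3 and 2 CpG and that of SCN2B held 1, with none of the motifs in either gene, while the median over all 35116 RefSeq windows was 14 CpG. A GC box was present in 22 of the 40 channel windows and in 44.95% of all windows, an E-box in 10 of 40 and 17.95%, a TATA box in 2 of 40 and 11.53%, and a cAMP response element in 0 of 40 and 1.85%. A match describes letters only and is not a measured binding site.

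On day 8 the first question was which channel genes changed at the end of 24 h with 100 nM rotenone. CACNG1 and SCN2B rose, and CACNA2D2 and SCN1A fell. These 4 of 40 genes (10%) stand against 9.48% of all genes that passed in this comparison. Of all genes, 4.07% passed higher and 5.41% passed lower. Of the 40, 3 passed at over 1.5-fold, against 3.45% of all genes. Whatever the size of change, the share of channel genes that passed was thus close to that of all genes. Past 1.5-fold it was higher, which rests on 3 genes. The median log2 fold change was -0.07 over the 40 channel genes and -0.02 over all genes tested. With 50 nM for 24 h, CACNG1 rose and CACNA2D2, SCN1A and SCN7A fell, 4 of 40 (10%) against 8.02% of all genes, 3.66% higher and 4.36% lower. CACNG1 alone was past 1.5-fold there, where 2.8% of all genes were. With 50 nM for 12 h, CACNG1 rose and SCN1A fell, 2 of 40 (5%) against 5.52% of all genes, 2.66% higher and 2.85% lower, and CACNG1 alone passed at over 1.5-fold, against 1.75%. The 3 comparisons share the DMSO arrays of day 8 and are therefore not independent of each other. Beside these values, 2 of 8 pan-neuronal markers passed lower with 100 nM, MAP2 at -0.57 and SNAP25 at -0.30, and the summed signal of the 8 was 206887 to 236547 in DMSO and 198972 to 201566 with 100 nM. None of 11 dopaminergic markers passed there, with 3 at an unadjusted p under 0.05. Their part in the channel results was not tested.

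**Figure D1:**
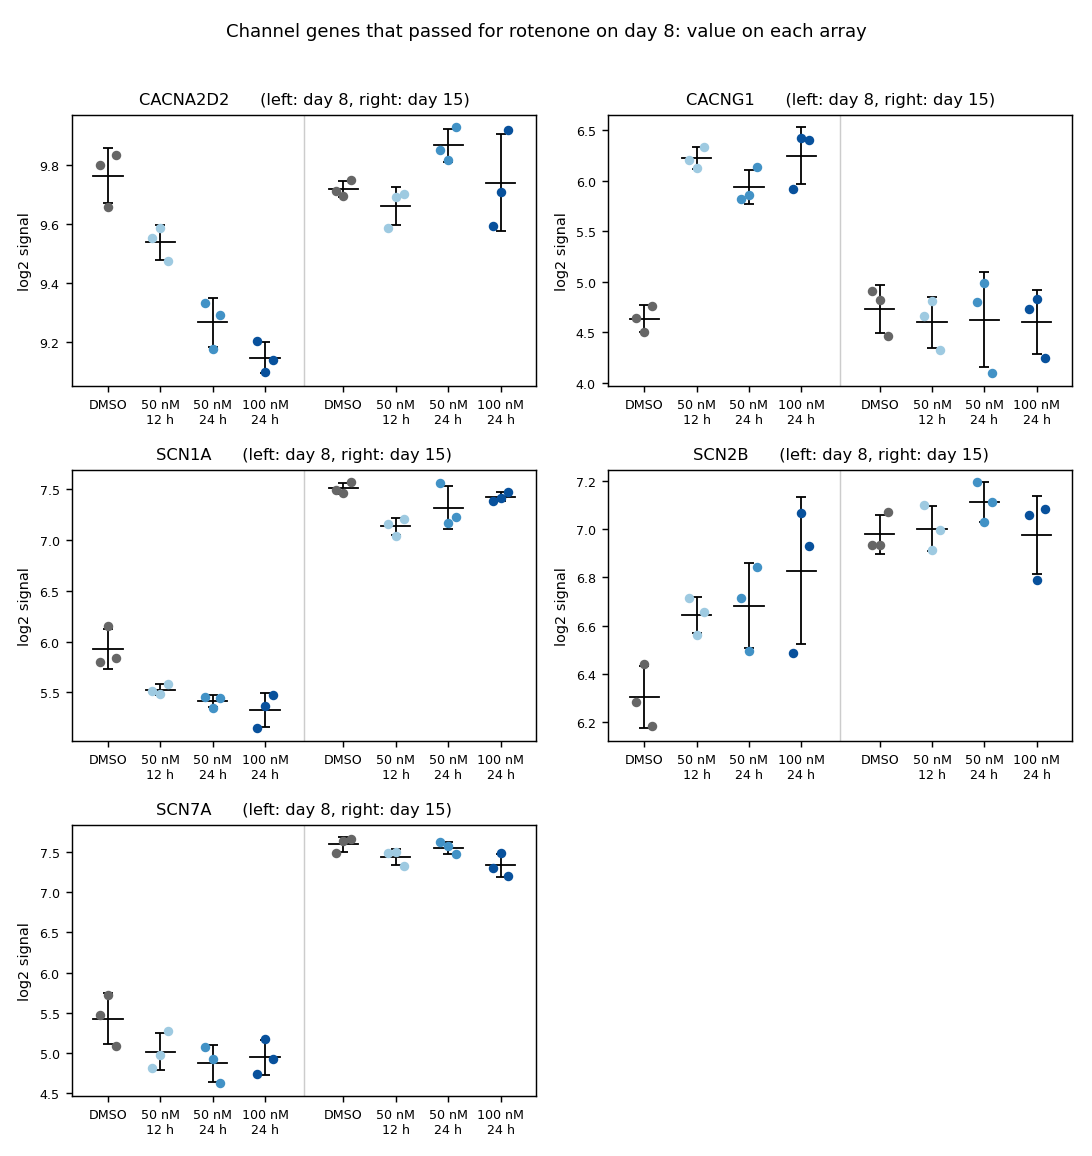
Log2 array signal (y axis) of the 5 channel genes that passed in a rotenone comparison on day 8, by treatment (x axis), with day 8 to the left and day 15 to the right of the gray line. Dots are arrays, ordered by replicate number, lines the mean and bars 1 SD (n = 3). CACNG1 lay at or below 4.77 in day 8 DMSO and at or above 5.82 in all rotenone arrays of that day.

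CACNG1 encodes the gamma subunit of the skeletal muscle L-type calcium channel. In DMSO on day 8 its log2 signal was 4.64, 4.50 and 4.77 in replicates 1, 2 and 3. With 100 nM for 24 h it was 5.92, 6.42 and 6.40, with 50 nM for 24 h it was 5.82, 5.86 and 6.13, and with 50 nM for 12 h it was 6.20, 6.13 and 6.34. All 9 rotenone arrays lay above all 3 DMSO arrays. The rise was 1.61 ± 0.21 (SE) on the log2 scale with 100 nM, or 3.06-fold (adjusted p = 6.71e-05), 1.30 ± 0.21 with 50 nM for 24 h (adjusted p = 0.000651) and 1.58 ± 0.21 with 50 nM for 12 h (adjusted p = 0.000185). Within slides 1, 2 and 3, before batch correction, the 100 nM difference was 1.35, 1.95 and 1.64. The probe was well above background on 2 of 3 DMSO arrays and on all 9 rotenone arrays, and its fold change depended on how background was treated: the 100 nM value was 0.76 with a normexp offset of 50 and 2.68 with the scanner software's own processed signal. On slides 2 and 3 alone, the calls at 50 nM were lost (adjusted p = 0.111 at 24 h and 0.0995 at 12 h).

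Since CACNG1 is a muscle gene, a list of 13 skeletal muscle markers, 12 of them tested, was set beside it. With 100 nM on day 8, 1 of the 12 passed, where 9.48% of all genes did. This was ACTA1, which encodes skeletal actin, at a log2 fold change of 2.24 ± 0.49 (adjusted p = 0.00568), and 9 of the 12 had values below 0. The myogenic factor MYOD1 had a log2 fold change of -0.23 (adjusted p = 0.834) and MYOG -0.20 (adjusted p = 0.608), and both were well above background on all 3 DMSO arrays of day 8. The summed signal of the list was 7599 to 9854 in DMSO and 8231 to 13434 with 100 nM, ranges that overlap. Of other members that encode skeletal muscle channel subunits, SCN4A and CACNA1S had 100 nM values of -0.36 and -0.07, and CACNB1 and CACNA2D1, which neurons also use, of 0.29 and 0.36. None of these 4 passed. The part of muscle-like cells in the CACNG1 result was not tested. Along chromosome 17, CACNG5, CACNG4 and CACNG1 follow each other with no other protein-coding gene between them in RefSeq. CACNG4 and CACNG5, which encode AMPA receptor subunits of the gamma family, had 100 nM values of 0.08 ± 0.24 and -0.02 ± 0.24.

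CACNA2D2 encodes an alpha2delta subunit, which brings high-voltage-activated channels to the surface and is a binding site of gabapentin. Its log2 signal in DMSO on day 8 was 9.80, 9.66 and 9.83. It was 9.55, 9.59 and 9.47 after 12 h of 50 nM, 9.33, 9.17 and 9.29 after 24 h of 50 nM, and 9.20, 9.10 and 9.14 after 24 h of 100 nM. Each rotenone array was below each DMSO array, and the 100 nM group had the lowest mean. CACNA2D2 fell by 0.62 on the log2 scale with 100 nM (SE 0.08, 1.54-fold, adjusted p = 8.82e-05) and by 0.50 with 50 nM for 24 h (SE 0.08, adjusted p = 0.000837). At 12 h the value was -0.23 ± 0.08 (adjusted p = 0.14). Within the slides the 100 nM differences were -0.60, -0.56 and -0.70. The 50 nM call at 24 h was lost without batch correction (adjusted p = 0.0592), on slides 2 and 3 alone (0.106) and with the compared groups alone in the fit (0.0547). None of the other 3 alpha2delta genes passed for rotenone on day 8.

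SCN1A encodes a pore-forming alpha subunit of the axon initial segment, known for its role in epilepsy. Its log2 signal in DMSO on day 8 was 5.80, 6.16 and 5.84. It was 5.51, 5.49 and 5.58 after 12 h of 50 nM, 5.46, 5.34 and 5.44 after 24 h of 50 nM, and 5.15, 5.37 and 5.47 after 24 h of 100 nM, so that all rotenone arrays lay below all DMSO arrays. The gene fell by 0.60 with 100 nM (SE 0.11, 1.52-fold, adjusted p = 0.00146), by 0.52 with 50 nM for 24 h (SE 0.11, adjusted p = 0.0061) and by 0.40 with 50 nM for 12 h (SE 0.11, adjusted p = 0.0388). Each of its 2 probes also passed with 100 nM when probes were tested singly, at -0.56 and -0.64. Within the slides the 100 nM differences were -0.66, -0.81 and -0.35. The call for 50 nM at 24 h was lost in 4 of 18 alternatives (adjusted p = 0.0833 to 0.137). The 12 h call was lost in 12 of 18 alternatives, with adjusted p of up to 0.402 (without batch correction). Among these it was lost without day 8 DMSO replicate 2 (adjusted p = 0.205) or replicate 3 (0.0557) and without replicate 1, 2 or 3 of the 12 h group (0.0983, 0.125 and 0.0665). The 100 nM call was lost without batch correction (adjusted p = 0.0642), on slides 2 and 3 alone (0.0897) and with the compared groups alone (0.0711).

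SCN7A encodes an atypical alpha subunit that responds to extracellular sodium and not to voltage. Its log2 signal was 5.48, 5.72 and 5.09 in DMSO, 5.07, 4.93 and 4.62 with 50 nM for 24 h, and 4.74, 5.18 and 4.93 with 100 nM. DMSO replicate 3 lay near the 50 nM arrays, above the highest of them, and was overlapped by the 100 nM arrays. The gene fell by 0.56 with 50 nM for 24 h (SE 0.16, 1.47-fold, adjusted p = 0.0335), while the values were -0.48 ± 0.16 with 100 nM (adjusted p = 0.0609) and -0.41 ± 0.16 with 50 nM for 12 h (adjusted p = 0.157). The 50 nM call was lost without day 8 DMSO replicate 1 (0.108) or 2 (0.177) and without replicate 2 (0.0676) or 3 (0.17) of the 50 nM 24 h group, as well as with several other settings. Its 2 probes gave -0.69 and -0.27 with 100 nM. The 100 nM value passed without DMSO replicate 3 (adjusted p = 0.016) and without 100 nM replicate 2 (0.039).

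The remaining 8 alpha subunit genes did not pass on day 8. With 100 nM, 8 of all 10 alpha genes had values below 0, and the median was -0.32 against -0.02 over all genes. With 50 nM the median was -0.06 at 24 h and -0.05 at 12 h, with 6 of 10 below 0 each time. SCN10A and SCN11A, among the 8, were well above background on no array of day 8. SCN3A, an alpha subunit prominent in the fetal brain, was at -0.43 ± 0.17 (adjusted p = 0.137) with 100 nM. With the replicate block in place of the batch correction it was at -0.47 and passed (adjusted p = 0.0373). SCN2A and SCN8A, the main alpha subunits of excitatory axons, were at -0.18 ± 0.22 and -0.16 ± 0.13. In RefSeq SCN1A, SCN9A and SCN7A lie next to each other on chromosome 2, with SCN3A and SCN2A nearby. SCN9A, between SCN1A and SCN7A, was at 0.20 ± 0.22 with 100 nM, where SCN7A did not pass. Its 2 probes disagreed, at -0.29 and 0.69, and that at 0.69 was well above background on 1 array.

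SCN2B was the only beta subunit gene of the 4 to pass on day 8, and it encodes a beta subunit that is linked to the alpha subunit by a disulfide bond. Its log2 signal was 6.28, 6.44 and 6.19 in DMSO, 6.71, 6.56 and 6.66 with 50 nM for 12 h, 6.71, 6.49 and 6.84 with 50 nM for 24 h, and 6.49, 7.07 and 6.93 with 100 nM. The groups did not overlap, though replicate 1 of 100 nM was close to the highest DMSO array. SCN2B rose by 0.52 ± 0.13 with 100 nM (1.44-fold, adjusted p = 0.0138), and the values were 0.38 ± 0.13 (adjusted p = 0.0866) and 0.34 ± 0.13 (adjusted p = 0.158) with 50 nM for 24 h and 12 h. Within the slides the 100 nM differences were 0.21, 0.63 and 0.76. The call was lost without DMSO replicate 3 (adjusted p = 0.0686), without 100 nM replicate 2 (0.0825) or 3 (0.0659), and in the authors' own normalized values (adjusted p = 0.324), as well as without batch correction (0.0892), on slides 2 and 3 alone (0.0897) and with the compared groups alone (0.142). SCN4B, its neighbor on chromosome 11 with no other protein-coding gene between them, was at 0.36 ± 0.17 (adjusted p = 0.232), and SCN3B was at -0.20 ± 0.09 (adjusted p = 0.191).

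None of the calcium channel pore genes passed for rotenone on day 8. Of the T-type genes, CACNA1H had the smallest p with 100 nM. Its log2 signal was 11.60, 11.39 and 11.80 in DMSO and 12.45, 12.22 and 12.26 with 50 nM for 12 h, which did not overlap. The 12 h value was 0.71 ± 0.21 with an adjusted p of 0.0572, and it passed with the replicate block (0.70, adjusted p = 0.00489), with the authors' normalized values (0.67, adjusted p = 0.00201) and in some other settings. With 100 nM it was 0.41 ± 0.21 (adjusted p = 0.29) and passed in 1 of 18 alternatives (adjusted p = 0.0385). CACNA1C, an L-type pore of neurons and heart, was at 0.30 ± 0.12 with 100 nM (adjusted p = 0.159) and passed in 1 of 18 alternatives (adjusted p = 0.0306). Its 4 probes disagreed. Those well above background on all 24 arrays gave 0.42 and 0.73, of which the latter passed when probes were tested singly (adjusted p = 0.000393). Those at 0.02 and 0.04 were well above background on 2 and 16 arrays. CACNA1A, the P/Q-type pore of presynaptic terminals, was at -0.15 ± 0.12 (adjusted p = 0.595), and CACNB3, a cytoplasmic beta subunit, at 0.14 ± 0.10 (adjusted p = 0.489).

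**Figure D2:**
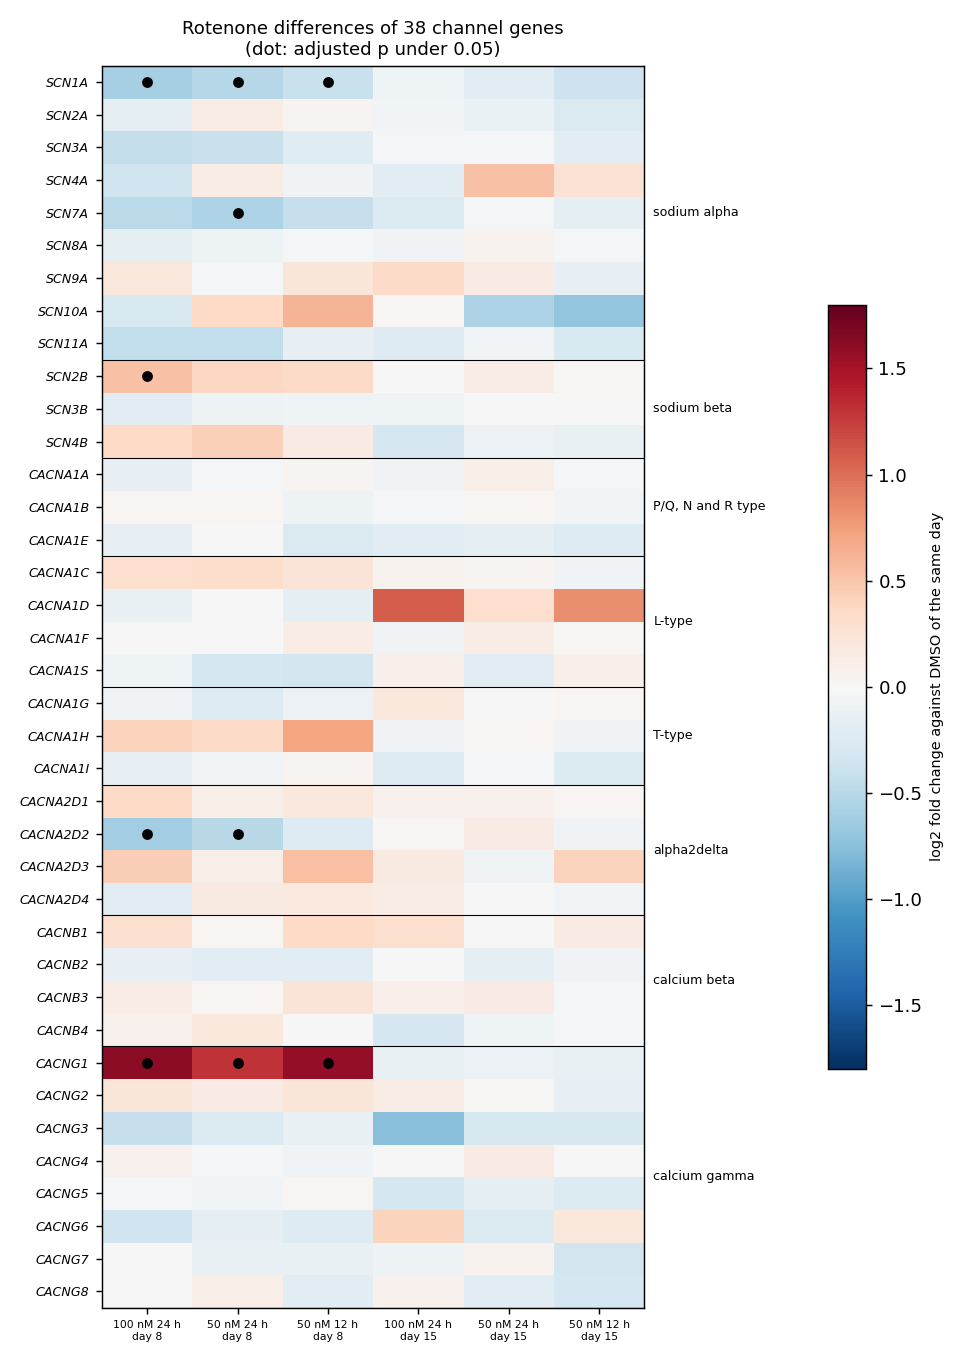
Log2 fold change against DMSO of the same day (color) for 38 of the 40 channel genes (rows, grouped by role) in the 6 rotenone comparisons (columns). Dots mark genes that passed. There are 4, 4 and 2 dots in the day 8 columns and none in the day 15 columns, where the deep red cell of CACNA1D at 100 nM rests mainly on 1 of 3 arrays.

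Dose and time were compared directly on day 8. Between 100 nM and 50 nM at 24 h, 0 of the 40 channel genes and 0% of all genes passed in limma, and 0 of 40 had an unadjusted p under 0.05, against 4.17% of all genes. The difference between doses was 0.31 for CACNG1 (95% confidence interval -0.13 to 0.75), -0.12 for CACNA2D2 (-0.30 to 0.05), -0.09 for SCN1A (-0.32 to 0.14) and 0.15 for SCN2B (-0.13 to 0.42). Between 24 h and 12 h at 50 nM, 0 of 40 passed against 0.537% of all genes, and 1 of 40, CACNA2D2, had an unadjusted p under 0.05, against 10.9%. The arrays of CACNA2D2 at 24 h lay below those at 12 h without overlap, at a difference of -0.27 (-0.45 to -0.10, adjusted p = 0.184). For CACNG1 this difference was -0.28 (-0.73 to 0.16).

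At day 15, 7 days after wash-out, none of the 40 channel genes passed with 100 nM for 24 h, 50 nM for 24 h or 50 nM for 12 h. The same held for all genes (0% in each, limma). At an unadjusted p under 0.05 there were 1, 0 and 1 channel genes, against 7.21%, 3.28% and 3.47% of all genes. The first was CACNA1D, an L-type pore, whose log2 signal was 4.83, 3.96 and 3.88 in DMSO and 4.49, 4.44 and 7.00 with 100 nM. Replicate 3 alone was high, and the probe was well above background on 2 of the 3 arrays. The other was SCN1A with 50 nM for 12 h, at 7.49, 7.46 and 7.57 in DMSO against 7.16, 7.04 and 7.21, a difference of -0.37 ± 0.11 (unadjusted p = 0.00344) that did not pass although the groups did not overlap.

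The 4 genes that had passed with 100 nM on day 8 had day 15 values near 0. CACNG1 was at 4.91, 4.82 and 4.46 in DMSO and 4.74, 4.83 and 4.24 with 100 nM, a difference of -0.13 (95% confidence interval -0.57 to 0.31). CACNA2D2 was at 9.71, 9.69 and 9.75 and at 9.59, 9.71 and 9.92, a difference of 0.02 (-0.15 to 0.20). The groups overlapped for both. SCN1A differed by -0.08 (-0.31 to 0.15) and the interval for SCN2B was -0.28 to 0.27, and their arrays overlapped as well.

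Whether the response to 100 nM differed between the days was tested as an interaction. Of the 40 genes, 2 passed (5%), against 2.44% of all genes, 1.15% higher and 1.29% lower. The change of CACNG1 was smaller on day 15 by 1.74 ± 0.30 on the log2 scale (day 15 minus day 8, -1.74, adjusted p = 0.00305), and that of CACNA2D2 was higher by 0.64 ± 0.12 (adjusted p = 0.00508). For SCN1A the difference was 0.52 ± 0.16 (adjusted p = 0.0927) and for SCN2B -0.53 ± 0.18 (adjusted p = 0.161), so that a difference between days was not shown for these. The CACNG1 call was lost with arrays scaled to the 75th percentile in place of quantile normalization (-1.36, adjusted p = 0.0859) and on slides 2 and 3 alone (adjusted p = 0.246). That of CACNA2D2 was lost without batch correction (0.223), on slides 2 and 3 alone (0.22) and with the compared groups alone (0.0863).

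More of the channel genes differed between day 8 and day 15 in DMSO alone. Of the 40, 15 passed (37.5%), against 23.2% of all genes. They comprised 12 that rose, where 10.1% of all genes passed higher, and 3 that fell, where 13.2% passed lower. At over 1.5-fold there were 14 of 40, against 12.2%. The median log2 fold change was 0.22 over the 40 genes and -0.04 over all genes. Values on each slide taken singly had the same sign for all 15 genes, and no array of day 15 overlapped an array of day 8. Both largely follow from choosing genes that passed on these same arrays, and neither was counted over all genes. They add no support, and the same applies wherever genes that passed are said not to overlap. The scan of day 15 DMSO replicate 1 carries a name that does not mention DMSO, so that its group rests on its label.

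**Figure D3:**
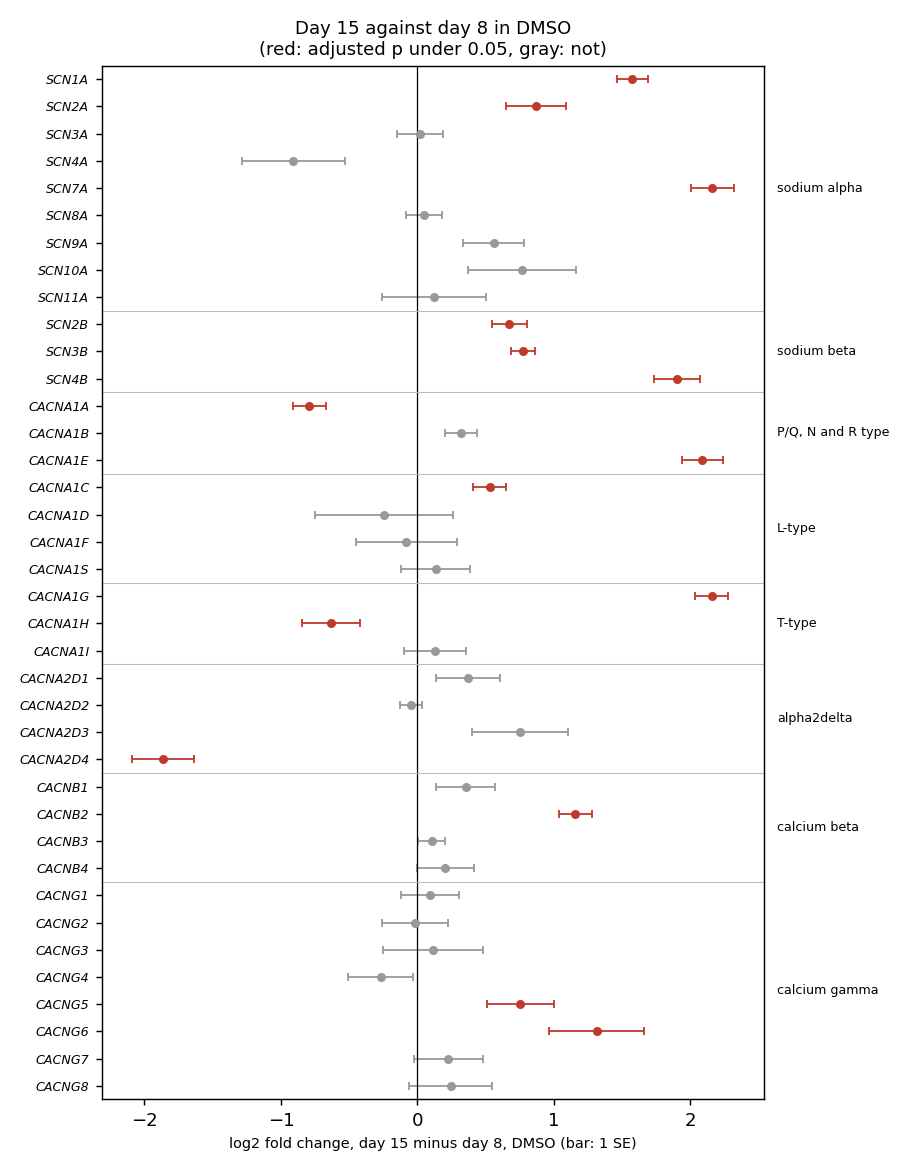
Log2 fold change of day 15 against day 8 in DMSO (x axis) for 38 of the 40 channel genes (y axis, grouped by role), with bars of 1 SE (n = 3 against 3). Red points passed and gray ones did not. The largest rises, near 2, are those of SCN7A, CACNA1G, CACNA1E and SCN4B, and the largest fall is that of CACNA2D4.

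Of the alpha sodium channel genes, SCN1A, SCN2A and SCN7A rose, 3 of 10. SCN1A went from the day 8 values given above to 7.49, 7.46 and 7.57, a rise of 1.58 ± 0.11 (2.98-fold, adjusted p = 4.14e-09). SCN7A went to 7.49, 7.63 and 7.66, a rise of 2.16 ± 0.16 (4.48-fold, adjusted p = 6.34e-09). Both probes of each of these genes passed singly in the same direction. SCN2A, an alpha subunit of unmyelinated axons, was at 5.37, 5.78 and 5.89 on day 8 and at 6.86, 6.22 and 6.58 on day 15. It rose by 0.87 ± 0.22 (1.83-fold, adjusted p = 0.00672), with slide differences of 1.46, 0.41 and 0.68, and did not pass without batch correction (0.257) or on slides 2 and 3 alone (0.279). SCN9A, an alpha subunit of sensory neurons, was at 0.56 ± 0.22 (adjusted p = 0.0798), passed with the replicate block (adjusted p = 0.0265), and had 1 probe that passed singly at 0.85 and 1 that was well above background on 1 array. SCN4A, the skeletal muscle pore, was at -0.91 ± 0.38 (adjusted p = 0.0931) and passed with the block at -0.92 (adjusted p = 0.0438). SCN3A and SCN8A were at 0.02 ± 0.17 and 0.05 ± 0.13.

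Of the 4 beta sodium channel genes, 3 rose. SCN4B, whose product can block the open pore, was at 4.94, 5.14 and 4.93 on day 8 and at 6.80, 7.10 and 6.82 on day 15, a rise of 1.90 ± 0.17 (3.74-fold, adjusted p = 8.71e-08). SCN3B was at 11.27, 11.18 and 11.22 and at 11.93, 12.05 and 12.02, a rise of 0.77 ± 0.09 (1.71-fold, adjusted p = 2.91e-06). The DMSO arrays of SCN3B lay close together on either day. SCN2B went from the values above to 6.93, 6.93 and 7.07, a rise of 0.67 ± 0.13 (1.6-fold, adjusted p = 0.000774), which did not pass in the authors' normalized values (0.36, adjusted p = 0.31).

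Of the P/Q-, N- and R-type pores, 1 rose and 1 fell. CACNA1E, the R-type pore, was at 6.52, 6.84 and 6.58 on day 8 and at 8.69, 8.47 and 9.04 on day 15. It rose by 2.09 ± 0.15 (4.25-fold, adjusted p = 6.34e-09). CACNA1A was at 10.85, 11.00 and 11.07 and at 10.12, 10.10 and 10.31, and fell by 0.79 (SE 0.12, 1.73-fold, adjusted p = 8.82e-05). CACNA1B, the N-type pore, was at 0.32 ± 0.11 (adjusted p = 0.0505), with 1 probe of 2 passing singly at 0.55.

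The T-type pores, which open near rest and give low-threshold bursts, also split. CACNA1G was at 5.36, 5.73 and 5.15 on day 8 and at 7.64, 7.60 and 7.47 on day 15, a rise of 2.16 ± 0.12 (4.47-fold, adjusted p = 2.07e-10) and the smallest p of the 40 genes. CACNA1H was at 11.60, 11.39 and 11.80 and at 10.85, 10.80 and 11.24, and fell by 0.63 (SE 0.21, 1.55-fold, adjusted p = 0.0362). This call was lost without day 8 DMSO replicate 1 (adjusted p = 0.0829) or 3 (0.138) and without day 15 DMSO replicate 1 (0.112) or 2 (0.127), without batch correction (0.272) and on slides 2 and 3 alone (0.399). CACNA1I was at 0.13 ± 0.23. Among the L-type pores only CACNA1C passed, from 5.68, 5.51 and 5.79 to 6.12, 6.21 and 6.24, a rise of 0.53 ± 0.12 (1.44-fold, adjusted p = 0.00392). Its 4 probes gave 0.14 to 0.82, the lowest from the probe well above background on 2 arrays, and the call was lost when the brightest probe stood for the gene (adjusted p = 0.0712), with scaling to the 75th percentile (0.0976) and on slides 2 and 3 alone (0.0758).

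Among the auxiliary subunits of calcium channels, CACNB2, a cytoplasmic beta subunit also prominent in heart, was at 5.77, 5.96 and 5.61 on day 8 and at 6.88, 6.90 and 7.02 on day 15. It rose by 1.16 ± 0.12 (2.23-fold, adjusted p = 6.65e-07), and both its probes passed singly. CACNA2D4, an alpha2delta subunit best known from photoreceptors, was at 5.54, 5.91 and 5.72 and at 3.88, 3.95 and 3.76. On day 15 it was well above background on none of the 3 DMSO arrays, so that the size of its fall is uncertain. The dim group was set at the lowest signal of probes well above background on each array. The signal was then 3.27-fold lower on day 15. This is a bound in the main setting only, since the log2 value ran from -3.38 to -0.68 over the alternatives, all of which kept the call. The fitted value was -1.87 ± 0.23 (adjusted p = 5.05e-06). CACNB1, CACNB3 and CACNB4 had values of 0.11 to 0.35, and CACNA2D1, CACNA2D2 and CACNA2D3 of -0.05 to 0.75, none of which passed.

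Of the 8 gamma genes, CACNG5 and CACNG6 rose. CACNG6, the closest kin of CACNG1, was at 5.03, 5.52 and 5.04 on day 8 and at 6.51, 6.19 and 6.83 on day 15, a rise of 1.31 ± 0.35 (2.49-fold, adjusted p = 0.00919) that was lost on slides 2 and 3 alone (adjusted p = 0.118). CACNG5 was at 5.46, 5.30 and 5.13 and at 6.08, 5.98 and 6.10, a rise of 0.75 ± 0.24 (1.69-fold, adjusted p = 0.0311). That call was lost without day 8 DMSO replicate 2 (adjusted p = 0.0705) or 3 (0.108) and without day 15 DMSO replicate 1 (0.0774), 2 (0.0578) or 3 (0.0777), without batch correction (0.19) and on slides 2 and 3 alone (0.166). CACNG1 itself was at 0.09 ± 0.21 between the days (adjusted p = 0.808). CACNG4 was at -0.27 ± 0.24 and passed with the replicate block (-0.27, adjusted p = 0.0345).

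**Figure D4:**
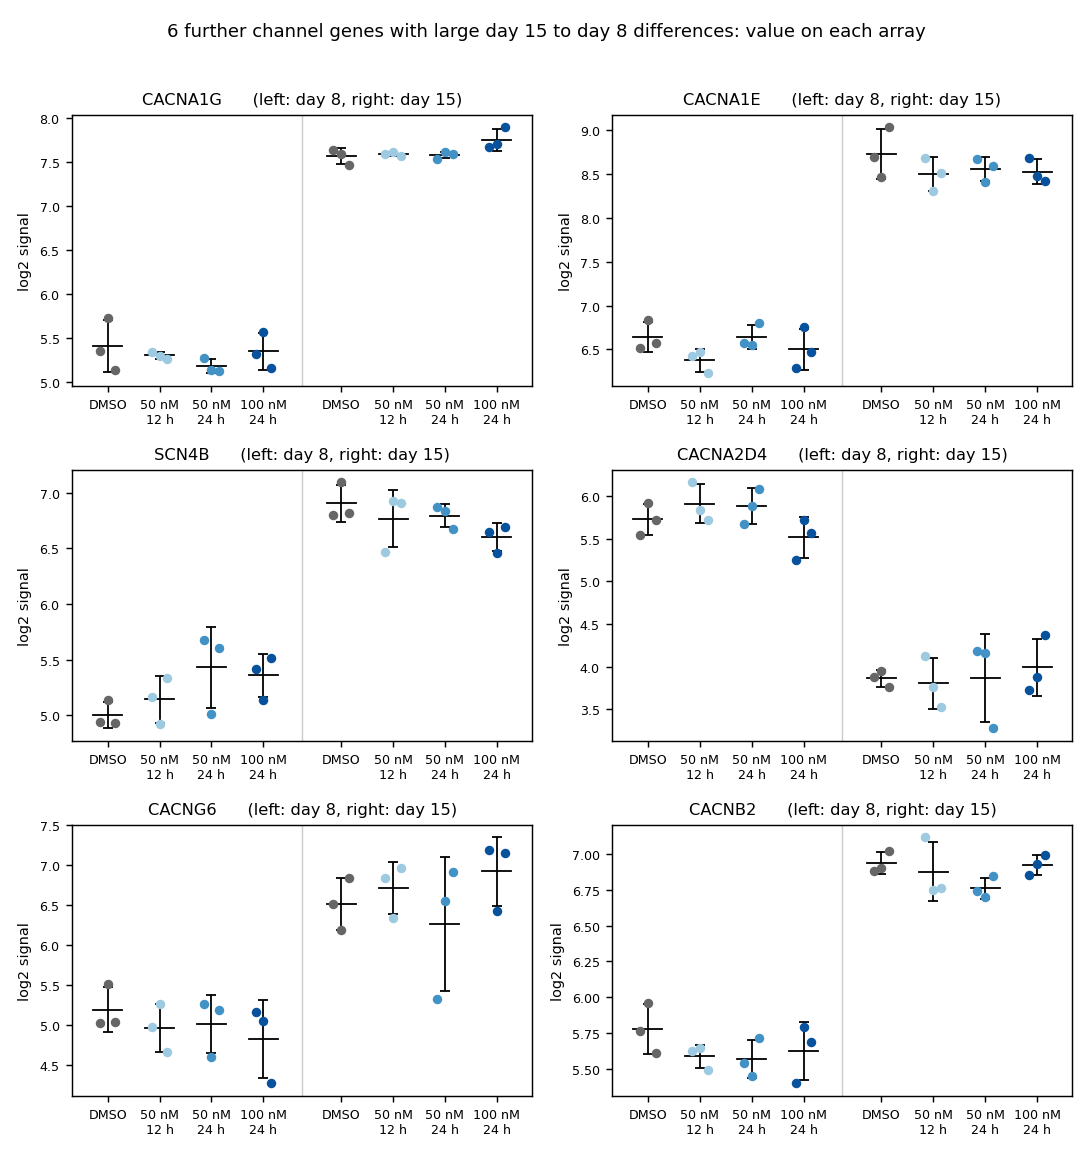
Log2 array signal (y axis) of 6 further channel genes that passed between days in DMSO, those with the largest changes, by treatment (x axis), with day 8 to the left and day 15 to the right of the gray line. Dots are arrays, ordered by replicate number, lines the mean and bars 1 SD (n = 3). In each of these genes all 12 day 15 arrays lie to 1 side of all 12 day 8 arrays, except in CACNG6, where 1 day 15 array, of 50 nM for 24 h, lies at 5.33.

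Some markers of the neurons and of other cell types moved between the days as well. Of all genes, 23.2% passed in this comparison, 10.1% higher and 13.2% lower. Of 11 dopaminergic markers, 4 rose and 2 fell. TH fell by 2.94 and the dopamine transporter gene SLC6A3 by 2.07, while the transcription factor gene NR4A2 rose by 1.57. The summed signal of the list was 2150 to 2275 on day 8 and 1236 to 1425 on day 15. Summed signals add unlogged values, so that bright genes, TH on day 8 among them, weigh most and the sum does not describe the list evenly. Of 8 pan-neuronal markers, 2 rose and 1 fell. Of the 12 skeletal muscle markers tested, 7 rose, none fell, and the summed signal of the list went from 7599 to 9854 on day 8 to 19782 to 29906 on day 15. MYH8, a perinatal myosin, had a mean of 4.47 on day 8, where 1 of 3 arrays was well above background, and of 8.29 on day 15, while MYOD1 differed by -0.02 (adjusted p = 0.957). Of the 4 progenitor and cycling markers, MKI67 and TOP2A fell, TOP2A from a mean of 6.18 on day 8 to no array well above background on day 15. None of the tested astrocyte (5), oligodendrocyte (3) or microglial (4) markers passed. The part of these shifts in the channel gene differences was not tested.

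A list of 41 genes whose products bind, regulate or act beside these channels, 40 of them tested, was counted alongside. With 100 nM on day 8, 5 of the 40 passed (12.5%, against 9.48% of all genes), 2 higher and 3 lower, at a median of -0.02, as over all genes. STAC2, an adaptor of L-type channels, was at 6.89, 6.98 and 7.09 in DMSO and at 7.70, 7.75 and 7.69 with 100 nM, and rose by 0.73 ± 0.13 (adjusted p = 0.0011). CAMK2D, a calcium-dependent kinase that phosphorylates both channel families, was at 7.43, 7.71 and 7.83 and at 8.24, 8.27 and 8.60, and rose by 0.71 ± 0.18 (adjusted p = 0.0171). The groups did not overlap in either gene.

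The 3 that fell were RYR2, FGF13 and REM2. RYR2, an intracellular calcium release channel, went from 9.43, 9.67 and 9.68 to 8.90, 9.15 and 8.87, and fell by 0.62 (SE 0.14, adjusted p = 0.00897). FGF13, which binds the tail of sodium channel alpha subunits, went from 8.73, 8.50 and 8.45 to 7.90, 8.10 and 8.16, and fell by 0.51 (SE 0.11, adjusted p = 0.00664). REM2, a small GTPase that inhibits calcium channels, went from 10.94, 10.65 and 10.90 to 10.42, 10.21 and 10.37, and fell by 0.50 (SE 0.12, adjusted p = 0.011). No array overlapped in these genes. The REM2 call was lost without day 8 DMSO replicate 1 (adjusted p = 0.0594) or 3 (0.0504) and without 100 nM replicate 2 (0.0561), and that of CAMK2D without day 8 DMSO replicate 1 (0.0934) and without 100 nM replicate 3 (0.0917). On slides 2 and 3 alone none of the 5 calls held (adjusted p = 0.0589 to 0.415). All but that of STAC2 were also lost without batch correction (adjusted p = 0.0515 to 0.143) and with the compared groups alone (0.0509 to 0.0741).

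With 50 nM, 5 of the 40 genes of this list passed at 24 h (12.5%, against 8.02% of all genes), 1 higher and 4 lower, and 2 at 12 h (5%, against 5.52%), both higher. None passed against DMSO on day 15. Between the days in DMSO 18 of the 40 passed (45%, against 23.2% of all genes), 13 higher and 5 lower, at a median of 0.17 against -0.04 over all genes. Of the 5 genes named, FGF13 (0.47) and CAMK2D (0.66) rose between the days, and REM2 (-1.61) and RYR2 (-1.07) fell.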

How the data were processed

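Total RNA of 24 samples (8 groups of 3) was labelled with Cy3 and hybridized to Agilent SurePrint G3 Human v2 arrays. The authors deposited the intensity of each spot from Agilent Feature Extraction together with background intensity, flags for outlying spots and the software's call of which spots exceeded background. Version 11.5.1.1 is named in the submitters' processing notes, and the headers of slide 2 give 12.0.0.7. The authors also deposited normalized log2 values of all samples, used here as an alternative. Their medians per sample were 6.42 to 6.64, and their centring is not stated.

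The median intensity of a spot less its local background (normexp, offset 0) was quantile normalized. Slide 1 was then adjusted to the others by parametric ComBat that kept the 8 groups as covariates, in code written for the purpose and tested on simulated data. Its use of degrees of freedom is not counted in the later fit. A spot was kept if, on at least 3 arrays, its signal exceeded the 95th percentile of negative controls 1.1-fold, with control spots left out and 6978 values carrying outlier flags set to missing. Probes were named by accession through RefSeq (GRCh38.p14), 30275 of 50599, and averaged per gene. Groups were compared in 1 limma fit of all arrays (lmFit and eBayes, two-sided). Tools were R 4.3.3, limma 3.58.1, data.table (version 1.17.8), Python 3.11.15 and matplotlib 3.10.9. Precision is limited by the number of arrays.

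The members and all gene lists were chosen with earlier results of these data known. Array values are given for members that passed in any comparison, and the member with the smallest p of each role and the listed partner genes that passed with 100 nM are also named. SCN9A, SCN3A, CACNA1D and other members that did not pass were named after their values were seen. Single values of 2 members are not reported here, and both count in all totals. Replicate numbers name slides. Before batch correction, deviations from the group means correlated between all 84 pairs of samples of different groups sharing a number (lowest 0.17, median 0.46). For the 168 pairs with different numbers the median was -0.35. These deviations hold the offset of each slide, so that pairing of the samples beyond the slide was not tested. Alternatives comprised 12 settings and leaving out each array in turn.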

Additional observations from a re-analysis of the deposited data

Results flagged for a closer look

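The change with 100 nM rotenone differed between day 8 and day 15 for 2 channel genes, by the test of the difference itself. For CACNG1, day 15 minus day 8, it was -1.74 ± 0.30 on the log2 scale, and for CACNA2D2 it was 0.64 ± 0.12. The values of every array are those given for day 8 and day 15 above. With 3 arrays per group, the spread within groups was not screened for single high or low arrays.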

How the results depend on the processing

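The number of channel genes that passed was compared with 12 other settings. Without batch correction the counts for 100 nM, 50 nM for 24 h, 50 nM for 12 h and the difference between days were 2, 1, 1 and 1 in place of 4, 4, 2 and 2. Over all genes these counts were 633, 482, 243 and 88 in place of 2014, 1704, 1172 and 518. On slides 2 and 3 alone they were 2, 0, 0 and 0 for the channel genes and 194, 148, 30 and 9 for all genes, and with the compared groups alone 2, 1, 1 and 1 and 808, 574, 68 and 112. ComBat without covariates gave 1 for 50 nM at 12 h, and scaling to the 75th percentile gave 1 for the difference between days. Leaving out 1 array at a time, the count for 50 nM at 12 h was 1 to 2. With the replicate block, which pairs arrays of a slide, the counts were 5, 4, 3 and 2, and 18 between the days in DMSO against 15; the 5 further genes are named above with their values, and the block ended no call.

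The results named by rule were refitted under the alternatives, leaving out arrays included, and no refit turned their direction. These were the calls of members, the smallest p of each role, and the partner genes that passed with 100 nM. Directions of the other values named above, such as those of SCN9A and SCN3A, were not followed in this way. Over the results named by rule that passed, 504 such refits kept the call and 83 lost it. Removing 1 array also gave a call to SCN4B with 50 nM for 24 h (0.64, adjusted p = 0.021, without replicate 2 of that group), to SCN2B for the difference between days (-0.70, adjusted p = 0.034, without day 8 100 nM replicate 1) and to CACNA2D3 between the days (1.11, adjusted p = 0.033, without day 15 DMSO replicate 3). Background treatment moved fold changes, as for SCN4B between the days, at 1.05 with an offset of 50 and 2.87 with the processed signal, though SCN4B was well above background on all 24 arrays. That signal moved the median of all genes for 100 nM on day 8 from -0.02 to 0.10.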
